A study of Mus musculus with 19 samples.

Results

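The small (40S) subunit of the cytosolic ribosome was followed here through 29 genes for its structural proteins (Rpsa, Fau and numbered Rps genes), taken from a list of symbols matched to Ensembl gene identifiers, with no pseudogenes and no kinases. They are 29 of the 39017 genes in the deposited tables, and the list does not hold every protein of the subunit. All 29 were present and passed the filter on low counts.

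The material was mouse striatum. Translating ribosome affinity purification (TRAP) captures messenger RNA on ribosomes that carry a green fluorescent tag on the large-subunit protein L10a, made only in cells that use the promoter driving the tag. The lines were Drd1::EGFP-L10a and Drd2::EGFP-L10a, kept on a background the labels write as C56BL/6J. They serve to tag spiny projection neurons with the D1 or the D2 dopamine receptor, but tag any cell that uses the promoter. All animals were female and carried the tag, and mice were 42 days old (young) or 2 years old (old). Each of the 4 groups (young D1, young D2, old D1, old D2) had 4 libraries, which the series describes as biological replicates. The labels do not say whether a library came from 1 animal or a pool.

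The small subunit binds messenger RNA and checks the match between codon and transfer RNA. It has a head and a body with a platform, and the RNA enters and leaves through the clefts between them. Messages for these proteins are short, abundant and usually begin with a cytosine and a run of pyrimidines, the 5′ terminal oligopyrimidine tract, through which mTOR signalling sets their translation. In neurons, phosphorylation of the protein made from Rps6 is widely used as a readout of activity. The values here are RNA on tagged ribosomes and not protein.

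The sequences around the annotated starts of the members that changed show how far this tract can be read from the annotation. RefSeq (GRCm38.p6) gave a start for 25 of the 29 genes. Each line holds 10 bases before and 20 bases from the start on the coding strand, and the longest run of C and T is in capitals. They are the members called in D1 neurons with age or between old D1 and old D2 neurons that had an entry.
Rps26: gcaagccgccggaTCCTCTTTCgagtcttg
Rps27: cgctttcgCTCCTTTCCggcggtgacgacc
Rps10: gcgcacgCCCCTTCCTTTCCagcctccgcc
Rps6: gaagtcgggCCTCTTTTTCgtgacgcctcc
Rps7: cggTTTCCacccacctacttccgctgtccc
Rpsa: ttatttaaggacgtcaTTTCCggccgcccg
Rps16: TTCTgtcgtgacgtagcactcaatgcgcct
Rps15: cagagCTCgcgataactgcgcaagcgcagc
Rps4x: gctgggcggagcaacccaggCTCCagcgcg

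Rps26, Rps27, Rps10 and Rps6 had a run of at least 8 pyrimidines in this window, and the other lines did not. Over the members with an entry, 10 of 25 (40.0%) had such a run, against 13.0% of the 27025 genes in the table, searched the same way on the coding strand only. A short run says only that these letters are not in the window, since the annotated start can lie off the real one. The windows lie at chr10:128626487-128626516 for Rps26, chr3:90213629-90213658 for Rps27, chr17:27635225-27635254 for Rps10 and chr4:86857348-86857377 for Rps6, all on the minus strand.

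The 16 libraries held 27484038 to 70903004 counts, of which the members took 0.180% to 0.336%. The old D1 libraries differed from the other 12 in several measures. They had 10364 to 13694 genes with a count against 12770 to 14992, which overlap, and, without overlap, a mean fragment length of 151 to 164 bases against 170.3 to 195 bases, and 4.45% to 5.41% of counts on the non-coding gene Gm42418 against 9.76% to 18.2%. The library barcodes in the labels end, for old D1 only, in a part that no other group uses, so barcode set and old D1 cannot be told apart. Old D1 replicate 4 had the fewest genes with a count.

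The labelled cell types were checked on marker lists, in summed TPM (transcript abundance corrected for length and scaled to the same total in each library). All 7 D1 markers were present, with 2634 to 3461 in young D1 and 4828 to 7693 in old D1, against 144 to 169.8 in young D2 and 439 to 689 in old D2. Both D2 groups lay far below, but old D2 was above young D2 without overlap, and 4 of the 7 were called higher with age in D2, where edgeR called 11 genes in all. The 6 of 7 D2 markers in the tables summed to 5482 to 11528 in D2 and 113 to 555 in D1 libraries. The 6 markers shared by both neuron types summed to 5038 to 6180 in young D1, 7007 to 8478 in young D2, 3752 to 3961 in old D1 and 6283 to 6792 in old D2. In D1 they were thus lower in old than in young libraries without overlap, as the members' sum was, and with age 5 of 6 had a negative log2 change and 1 was called lower. Of 6 astrocyte genes, all were above 0 and their sum was 34.3 to 63.8 in young D1, 18.1 to 53.9 in young D2, 214 to 373 in old D1 and 73.4 to 139 in old D2, and Aldoc made up 192 to 369 of it in old D1. Aqp4 and Gja1 were at 0 in 3 of the 4 old D1 libraries. The sum for 5 GABAergic interneuron genes was 62.1 to 139.9 in young D1, 7.34 to 70.0 in young D2, 31.4 to 546 in old D1 and 12.4 to 92.1 in old D2. The 7 microglial genes summed to 0.49 to 17.4 in young D1 and 0.67 to 4.43 in young D2. In old D1 they summed to 0.0 to 18.2 and in old D2 to 1.67 to 13.8. Among them only C1qa was at 0 in all libraries. Oligodendrocyte genes summed to 75.6 to 191 in old D1 and 127 to 353 elsewhere. The part of these cells and of the neuron markers' change in the results on the members was not tested, and in such pulldowns fewer tagged cells and less RNA per cell cannot be told apart.

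At the level of the whole set, the members summed to a mean of 14830 ± 2078 TPM (SD, n = 4) in young D1, 13120 ± 2083 in young D2, 10360 ± 2156 in old D1 and 13930 ± 1186 in old D2. The 4 old D1 libraries held 8330, 8686, 11956 and 12474 TPM and the young D1 libraries 15176, 12684, 13899 and 17544. The old D1 values were all below the young D1 values, by a narrow margin at the nearest pair, and overlapped with those of young D2 (10099 to 14819). Without Rps27 and Rps29, the remaining 27 genes summed to 6582 to 9409 in old D1 and 8815 to 10354 in young D1, and these ranges overlapped.

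**Figure D1:**
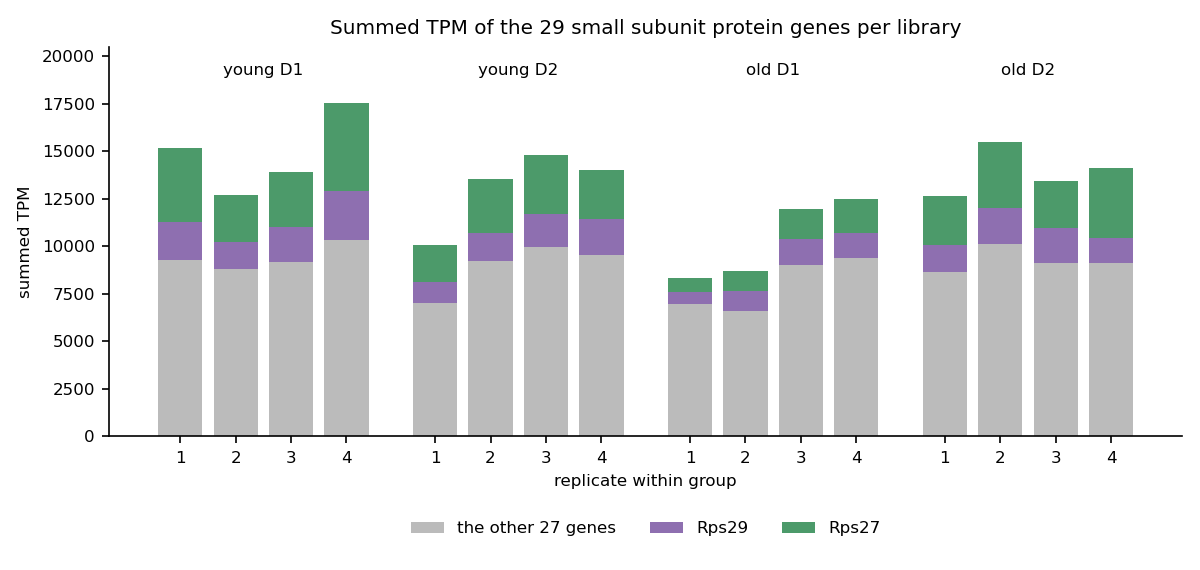
Summed TPM (vertical axis) of the 29 genes in each library (1 bar per replicate, 4 groups), split into Rps27, Rps29 and the other 27 genes. The old D1 bars stand at 8330 to 12474 TPM, and most of their distance from the young D1 bars lies in the Rps27 and Rps29 segments.

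Members differed widely in level. Rps27, a zinc-finger protein of the platform, and Rps29, a small zinc-binding protein of the head, averaged 2600 and 1561 TPM over the 16 libraries, and together made up 30.5% to 41.0% of the sum in young D1 and 16.5% to 24.6% in old D1. Rps25, a head protein that some viral and cellular internal entry sites need, followed with 1136 TPM. Rps27l, the paralog of Rps27, was the lowest at 30.2 TPM, ranging from 7.85 to 56.6 between libraries. Rpsa and Rps7 came next from below with 107 and 111 TPM. The order of the members was alike within groups, with Spearman correlations between replicates of 0.72 to 0.95 over the 29 genes, given as a description. Replicates of a typical member varied by a median coefficient of variation of 24.3% in young D1, 20.2% in young D2, 39.8% in old D1 and 19.7% in old D2. Over all tested genes these medians were 51.5%, 42.8%, 80.8% and 44.3%.

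The main question the design sets for these genes is whether their messages on D1 ribosomes changed with age. In edgeR's quasi-likelihood test over 13926 genes, 8 of 29 members were called in D1 neurons at a Benjamini-Hochberg adjusted p under 0.05, against 10.8% of all tested genes. Rps6 rose, where 5.39% of all genes did. Rpsa, Rps10, Rps14, Rps15, Rps16, Rps26 and Rps27 fell, where 5.44% of all genes did. Among all 29, the log2 change was negative for 22 (75.9%), with a median of -0.52, against 52.2% and -0.06 over all tested genes. Among the 12 head proteins, 3 fell and 0 rose, and among the 17 of body and platform 4 fell and 1 rose.

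**Figure D2:**
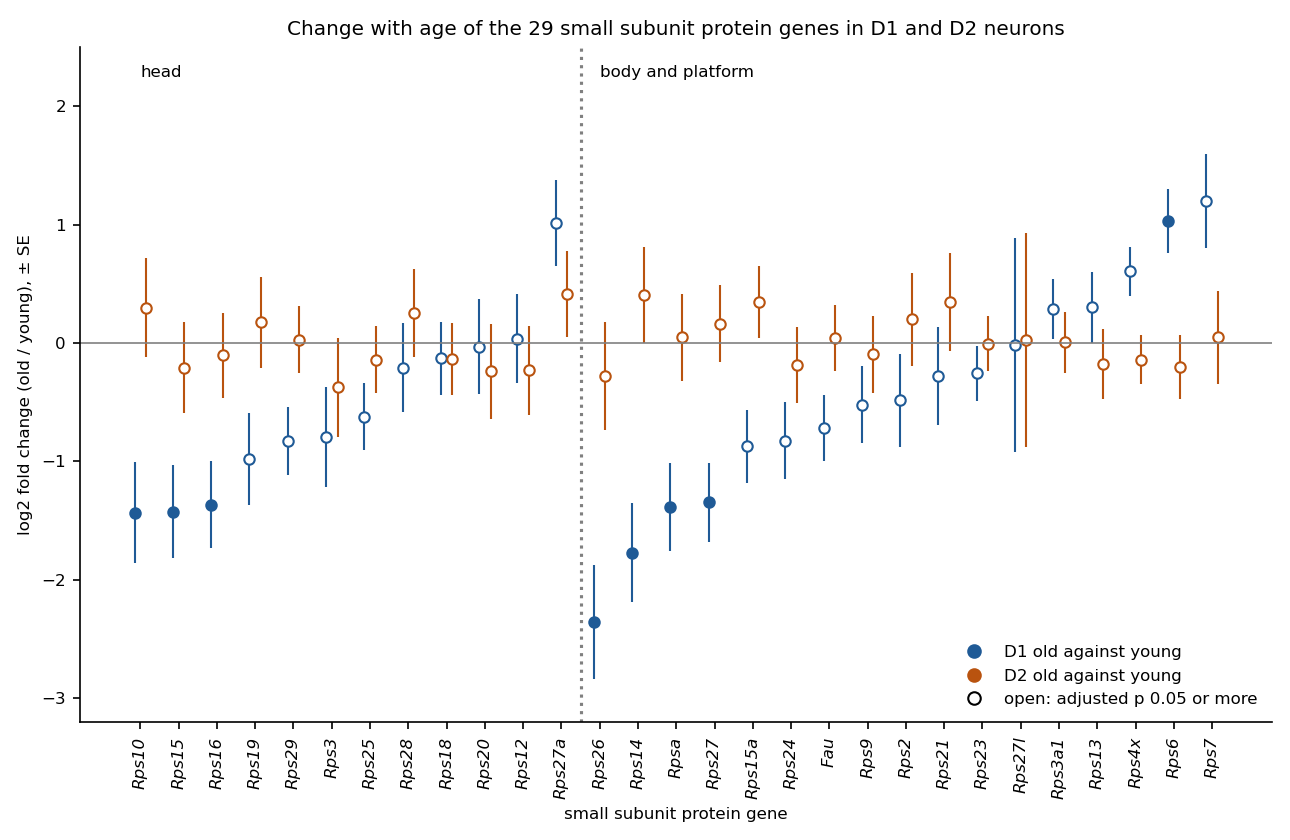
Log2 fold change with age (vertical axis, ± SE) of each member, head proteins left of the dotted line and body and platform proteins right of it, in D1 (blue) and D2 (orange) neurons, with filled points for adjusted p under 0.05. D1 points spread from -2.36 for Rps26 to 1.199 for Rps7, while D2 points lie between -0.37 and 0.42.

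Rps26 sits on the platform beside the channel through which the message leaves, and contacts bases upstream of the start codon. Its gene lies at chr10:128624534-128626747 on the minus strand (GRCm38). It stood at 513, 400.4, 325 and 723 TPM in young D1 and at 118, 124, 153 and 16.5 TPM in old D1. In D2 libraries it was 389, 717, 636 and 543 TPM when young and 379, 641, 532 and 422 TPM when old. Every old D1 library was below all 12 others, and old D1 replicate 4 was lowest. The log2 change in D1 was -2.36 (SE 0.48, adjusted p = 0.0043), and -2.01 (adjusted p = 0.00178) without that library. In D2 it was -0.28 (SE 0.46).

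Rps14, a platform protein whose loss of 1 copy underlies the anaemia of the human 5q deletion syndrome, followed the same pattern. It measured 195, 125, 134 and 277 TPM in young D1 and 34.7, 83.6, 75.9 and 37.6 TPM in old D1. It measured 148, 158, 236 and 155 TPM in young D2 and 129, 262, 334 and 316 TPM in old D2. No old D1 value reached the lowest value of any other group. The log2 change in D1 was -1.77 (SE 0.42, adjusted p = 0.0109), against 0.40 (SE 0.41, adjusted p = 1) in D2.

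Rpsa, also known as the laminin receptor precursor, lies at the junction of body and head near the exit of the message (gene at chr9:120127689-120132369, plus strand). Its values were 102, 157, 140.3 and 96.2 TPM in young D1 and 38.9, 56.4, 96.6 and 14.1 TPM in old D1. Its values were 91.9, 139.8, 106 and 147 TPM in young D2 and 112, 173, 128 and 118 TPM in old D2. Old D1 replicate 3 overlapped with the lowest young D1 library, and the other 3 old D1 libraries did not. The log2 change in D1 was -1.38 (SE 0.37, adjusted p = 0.0232), and it lost its call when young D1 replicate 2, or alternatively old D1 replicate 1, was left out.

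Rps27, with a gene at chr3:90212522-90213651 on the minus strand, had the highest group mean of the members in all 4 groups. It stood at 3889, 2447, 2878 and 4625 TPM in young D1 and 706, 1018, 1555 and 1788 TPM in old D1. It stood at 1995, 2837, 3117 and 2593 TPM in young D2 and 2589, 3452, 2465 and 3646 TPM in old D2. All old D1 values were below all others, and the log2 change in D1 was -1.35 (SE 0.33, adjusted p = 0.0138). The call was lost without young D1 replicate 4. The message is only 255 bases long, and the length over which RSEM counts it (the effective length) was 79.0 to 94.4 bases outside old D1 and 100.0 to 109 bases within it, so its TPM and its counts do not move in step. Its paralog Rps27l, made in response to p53, had 47.1, 43.5, 22.1 and 36.4 TPM in young D1 and 54.4, 19.8, 56.6 and 23.9 TPM in old D1. For Rps27l the log2 change was -0.02 with an SE of 0.90, the largest SE of the set.

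Among head proteins, Rps10 is a site of ubiquitin attachment when ribosomes collide, and its gene lies at chr17:27630418-27636669 on the minus strand. It measured 218, 156, 123 and 176 TPM in young D1 and 68.2, 33.1, 51.7 and 101 TPM in old D1. It measured 165, 125, 181 and 141 TPM in young D2 and 111, 235, 211 and 242 TPM in old D2. The old D1 libraries were below all others. The log2 change in D1 was -1.43 (SE 0.43, adjusted p = 0.0364). The call was lost in 7 of the 16 fits that left out 1 library, among them those without young D1 replicate 1, 2 or 4 and without old D1 replicate 1, 2 or 3.

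Rps15, a head protein that reaches toward the decoding centre (gene at chr10:80292453-80294114, plus strand), stood at 872, 651, 539 and 481 TPM in young D1. In old D1 it stood at 114, 107, 532 and 206 TPM, so replicate 3 fell within the young range and the other 3 lay far below. In D2 libraries it stood at 557, 699, 889 and 689 TPM when young and 631, 755, 610.2 and 581 TPM when old. The log2 change in D1 was -1.43 (SE 0.39, adjusted p = 0.0247), and the call was lost when replicate 1 or 2 of either group was left out.

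Rps16, whose tail touches the transfer RNA in the peptidyl site (gene at chr7:28350652-28353155, plus strand), gave 431, 371, 353 and 499 TPM in young D1. It gave 247, 171, 346 and 59.0 TPM in old D1, 445, 478, 519.9 and 465 TPM in young D2 and 363, 435, 535 and 451 TPM in old D2. The old D1 values were all below the others, by a small gap for replicate 3. The log2 change in D1 was -1.37 (SE 0.37, adjusted p = 0.0222), and leaving out young D1 replicate 4, or alternatively old D1 replicate 2, ended the call. Copies of Rps16, with Rps16-ps2 the largest, took 24.5% of the counts of gene and copies in old D1 and at most 14.4% in the other groups.

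In the other direction, Rps6, the substrate of the S6 kinases below mTOR (gene at chr4:86854660-86857412, minus strand), measured 315, 446, 479 and 226 TPM in young D1. It measured 912, 782, 868 and 545 TPM in old D1, above all 4 young D1 libraries. In young D2 it was 244, 330.4, 466 and 589.8 TPM, which reached above the lowest old D1 library, and in old D2 516, 307, 311 and 363 TPM. The mean went from 367 ± 118 to 777 ± 164 TPM (SD, n = 4) and the log2 change in D1 was 1.03 (SE 0.27, adjusted p = 0.0202). The call was lost without young D1 replicate 1 or 4.

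Rps7, which takes part in early assembly of the subunit, and Rps4x, encoded on the X chromosome, were higher in old D1 without passing the threshold against young D1. Rps7 (chr12:28630854-28635953, minus strand) stood at 94.9, 62.5, 128 and 74.5 TPM in young D1 and 172, 104, 217 and 337 TPM in old D1. In D2 libraries Rps7 stood at 40.7, 94.8, 71.4 and 70.9 TPM when young and 76.4, 63.4, 88.9 and 75.1 TPM when old. Its log2 change in D1 was 1.199 (SE 0.40, adjusted p = 0.0587), and 0.75 (adjusted p = 0.201) without old D1 replicate 4. Rps4x (chrX:102184941-102189394, minus strand) stood at 242, 388, 382 and 276 TPM in young D1 and 550.3, 424, 552 and 482 TPM in old D1. In D2 libraries Rps4x stood at 299.6, 299, 371 and 326 TPM when young and 264, 315, 355 and 319.6 TPM when old. All 4 old D1 values of Rps4x exceeded all 12 others, and its log2 change in D1 was 0.60 (SE 0.21, adjusted p = 0.0708).

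**Figure D3:**
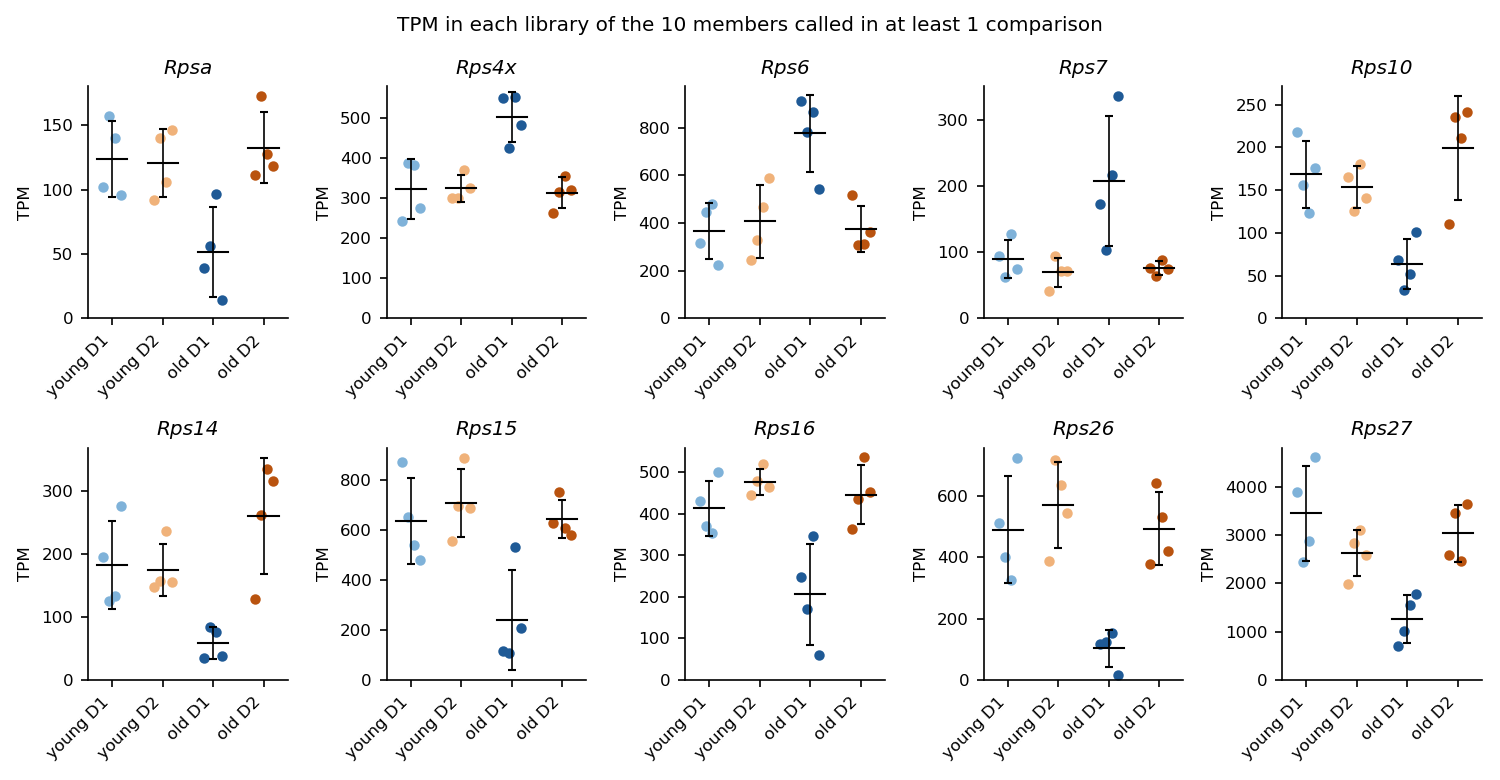
TPM (vertical axis, from 0) in each library of the 10 members called in at least 1 comparison, with 1 point per library and a line and bar for mean ± SD of the 4 libraries of a group. The old D1 mean is the lowest of the 4 groups for Rpsa, Rps10, Rps14, Rps15, Rps16, Rps26 and Rps27, and the highest for Rps4x, Rps6 and Rps7.

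The other 19 members were called in no comparison. In D1 neurons their log2 change with age ran from -0.98 for Rps19, the gene most often mutated in Diamond-Blackfan anaemia, to 1.01 for Rps27a, which encodes ubiquitin fused to a head protein. Rps27a had 190.2, 206, 246 and 239 TPM in young D1 and 268, 355, 437 and 941 TPM in old D1, with an adjusted p of 0.0809, and its log2 change was 0.42 (adjusted p = 0.377) without old D1 replicate 4. That of Rps29 was 0.0677, with a log2 change of -0.83 (SE 0.28). Rps15a, on the body, had -0.87 (SE 0.31, adjusted p = 0.0723) and Rps24, another Diamond-Blackfan gene, -0.83 (SE 0.33, adjusted p = 0.108). Fau, a body protein made as a fusion with a ubiquitin-like protein, had -0.72 (SE 0.28, adjusted p = 0.104), at 583, 544, 488 and 567 TPM in young D1 and 375, 174, 468 and 351 TPM in old D1. Rps3, which lines the entrance for the message, ranged from 15.7 to 169 TPM in old D1 and from 79.6 to 198 TPM in young D1, and its log2 change was -0.79 (SE 0.42). Rps25 had -0.62 (SE 0.28), Rps9 -0.52 (SE 0.33) and Rps2 -0.48 (SE 0.39). Without old D1 replicate 4, Rps25 (-1.04, adjusted p = 0.00897) and Rps29 (-0.99, adjusted p = 0.0371) were called, and Rps9 moved to -0.78 (adjusted p = 0.125) and Rps2 to -0.94 (adjusted p = 0.111). The remaining members, Rps3a1, Rps12, Rps13, Rps18, Rps20, Rps21, Rps23, Rps27l and Rps28, lay between -0.28 and 0.30, with SEs of 0.23 to 0.90. For those a missed threshold does not show that levels were alike.

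The number of calls depended on the fit. With only the 8 D1 libraries in the fit, 0 of 29 members were called (2.49% of genes), 14 had an unadjusted p under 0.05, and the 8 members above had adjusted p-values of 0.0639 to 0.207. DESeq2 on all 16 libraries called 14 members, 4 higher and 10 lower, where it called 19.0% of genes. Limma voom called 3 members, Rps6, Rps15 and Rps27 (3.93% of genes), and not Rps26 or Rps14. Limma on log2(TPM + 1) called 13 (11.7% of genes).

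The change with age in D1 also followed base composition. Over all genes, the log2 change and the GC content of the message had a Spearman correlation of -0.34 in D1 and of -0.01 in D2, and over the 29 members -0.31 and 0.16. These are descriptions across genes of the same libraries. Both properties were taken for each gene's most abundant isoform, GC content from its GENCODE M21 sequence and length from the deposited tables. For some genes the sequence lengths in these sources differ. For Rps18, Rps19 and Rps20 that isoform is not typed protein coding. The members had a median GC content of 50.9%, near the 49.9% of all tested genes, but a median message length of 614 bases against 2394. When the trend of counts with GC content and length was taken out per library, the members' median change moved from -0.52 to 0.00 and 15 of 29 were negative. Then 5 members were called, against 6.24% of genes. Rps26 (-2.10, SE 0.46, adjusted p = 0.0104) and Rpsa (-1.26, SE 0.35, adjusted p = 0.0391) were still lower and Rps6 (1.22, SE 0.27, adjusted p = 0.011) still higher. Rps7 (1.29, adjusted p = 0.0482) and Rps4x (0.68, adjusted p = 0.049) were added as higher.

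The other falls shrank with the trend taken out. Rps14 moved to -0.97, Rps16 to -1.09, Rps27 to -0.87 and Rps15 to -0.39, with adjusted p-values of 0.0721 to 0.552. Rps10, with the highest GC content of the set at 60.3%, moved from -1.43 to 0.00. That GC content is of an M21 sequence of 887 bases, where the isoform has 614 bases in the deposited tables. Fau, at 58.1% GC, turned from -0.72 to 0.43 (adjusted p = 0.298). Rps2 (0.50), Rps9 (0.22), Rps18 (0.33), Rps20 (0.90), Rps21 (0.34) and Rps28 (0.57) also had a positive value in place of a negative one, and none of these passed the test.

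**Figure D4:**
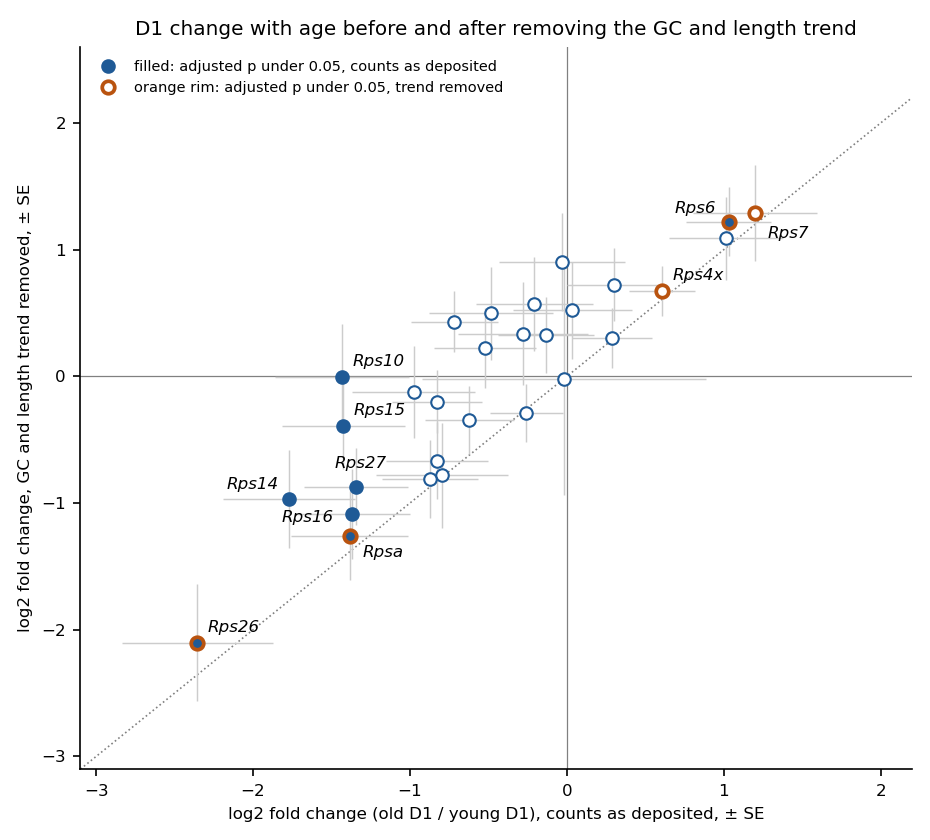
Log2 change with age in D1 for each member, from the counts as deposited (horizontal axis, ± SE) and after the GC and length trend was taken out (vertical axis, ± SE), with the line of equality dotted. Rps26, Rpsa, Rps6, Rps7 and Rps4x stay close to the line, while Rps10 moves from -1.43 to 0.00 and Rps15 from -1.43 to -0.39.

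In D2 neurons no member passed the test with age. edgeR called 0 of 29, where it called 0.0790% of all genes, and 0 had an unadjusted p under 0.05. DESeq2 also called 0, with 0.747% of all genes. The log2 changes ran from -0.37 for Rps3 to 0.42 for Rps27a with a median of 0.01, and the SEs from 0.21 to 0.90. The spread of each gene was estimated over all 16 libraries, so these SEs also carry the wider spread of old D1. With only the D2 libraries in the fit, 0 members and 39 of 13053 genes were called. Whether the age change differed between D1 and D2 neurons was tested directly. By edgeR 0 members were called, against 1.77% of genes, although 12 had an unadjusted p under 0.05. The nearest was Rps14, whose D1 change was lower than its D2 change by 2.18 on the log2 scale (SE 0.58, adjusted p = 0.0602), then Rps27 (1.51 lower, adjusted p = 0.0953), Rps6 (1.23 higher, adjusted p = 0.0978) and Rps26 (2.08 lower, adjusted p = 0.101). DESeq2 called 5 members for this difference, Rps6, Rps10, Rps14, Rps26 and Rps27, where it called 7.47% of genes. Limma on log2(TPM + 1) called Rps14 and Rps27, where it called 1.36% of genes.

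Between the neuron types at 42 days, edgeR called 0 members, against 0.409% of genes, and 1 had an unadjusted p under 0.05. That was Rps15a, 0.89 higher in D1 (SE 0.31, adjusted p = 0.54). DESeq2 called 0 as well, against 1.38% of genes. Of the 29 log2 differences (D1 over D2) 24 were positive, with a median of 0.26. Over all genes 51.0% were positive, with a median of 0.02. The members' median was 0.12 to 0.32 with 1 library left out, lowest without young D1 replicate 4. It was 0.10 with the trend of counts with GC content and length taken out.

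At 2 years, 8 members differed between D1 and D2 neurons, against 9.60% of genes. This comparison shares the old D1 libraries with the comparison of ages in D1. Rps6 (1.197, SE 0.27, adjusted p = 0.00959), Rps7 (1.64, SE 0.40, adjusted p = 0.0148) and Rps4x (0.86, SE 0.21, adjusted p = 0.015) were higher in old D1, where 5.02% of genes were. Rps26 (-2.09, SE 0.48, adjusted p = 0.00943), Rps14 (-1.89, SE 0.42, adjusted p = 0.00832), Rps10 (-1.44, SE 0.43, adjusted p = 0.0383), Rpsa (-1.29, SE 0.37, adjusted p = 0.036) and Rps16 (-1.27, SE 0.37, adjusted p = 0.0339) were lower, where 4.58% of genes were. Rps15 (-1.23, adjusted p = 0.0521) and Rps27 (-0.85, adjusted p = 0.104) did not pass. The median over the 29 was -0.30, against -0.07 over all genes.

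With only the 8 old libraries in the fit, Rps6 alone was called (1.18, adjusted p = 0.0282), against 2.85% of genes. Limma voom called 3 members, Rps4x, Rps6 and Rps7, all higher in old D1, against 4.70% of genes. None of the members that were lower in old D1 was called in either fit. With the GC and length trend taken out, 7 of the 8 members were called, against 6.75% of genes, and Rps10 was not (-0.33, adjusted p = 0.708). When 1 library was left out, Rps7 lost its call without old D1 replicate 4 (1.19) or old D2 replicate 2, Rps4x without old D2 replicate 1, 2 or 4, and Rps10 in 11 of 16 fits. Rpsa lost it without replicate 1 or 2 of old D1 or replicate 2 or 3 of old D2, and Rps16 without old D1 replicate 2 or old D2 replicate 2, 3 or 4. Rps14 and Rps26 kept it in all 16. Rps6 was called in all 26 alternative fits of this comparison, at log2 differences of 1.06 to 1.37.

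The deposited isoform tables show that old D1 libraries also differed in which part of some member genes was counted. For 17 members some TPM was assigned to isoforms that GENCODE M21 does not type as protein coding, such as retained-intron transcripts. The share rose in all 4 old D1 above all 4 young D1 libraries for 5 of the 17, Rps2, Rps16, Rps18, Rps19 and Rps27a, against 4.30% of 4323 genes. The same 5 were above all 4 old D2 libraries, against 5.81% of genes. The share fell without overlap in old D1 for Rps21 and Rps4x, against 5.48% of genes, and lay below old D2 for Rps3 and Rps4x, against 5.44%. With age in D2 it rose for 0 members and fell for 0, against 0.972% and 1.11% of genes. No test was made of these shares. The median share over all 4323 genes went the opposite way to the 5 members that rose. It was 0.00% to 1.71% in old D1 and 2.08% to 3.68% in the other libraries. The median over the 17 members was also mostly lower in old D1. It was 1.27% to 3.4% there, 3.34% to 4.84% in young D1 and 3.15% to 5.75% in D2 libraries.

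For Rps27a the share was 41.6%, 67.4%, 50.7% and 86.5% in old D1 and 0.134% to 2.09% in young D1, and no other library exceeded 5.57%. For Rps2, a protein at the entrance of the message channel, it was 82.2%, 83.3%, 77.4% and 88.5% in old D1 and 6.38%, 39.8%, 69.9% and 22.7% in young D1. For Rps19 it was 99.2%, 87.1%, 86.5% and 97.1% in old D1 and 20.7% to 54.8% elsewhere. Rps16 had 98.6%, 92.2%, 87.7% and 100.0% in old D1 and at most 72.3% elsewhere, and Rps18 had 99.9% to 100.0% in old D1 and 84.3% to 97.6% elsewhere. For Rps27a and Rps19 the old D1 libraries therefore lay far from the other 12, and for Rps18 the step was small.

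**Figure D5:**
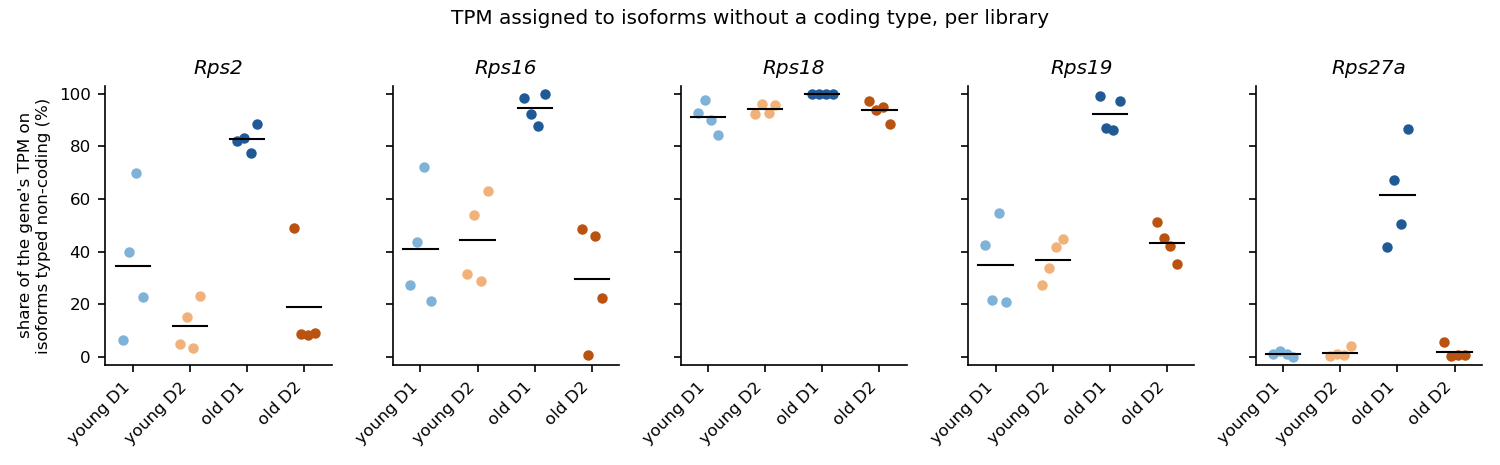
Share of a gene's TPM (vertical axis, %) on isoforms that are not typed protein coding, 1 point per library with a line at the group mean, for the 5 members whose old D1 libraries all lie above all young D1 libraries. For Rps27a the old D1 points lie at 41.6% to 86.5% and the others at or under 5.57%.

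Most of the isoforms involved cover the 3′ end of the gene. Rps27a-204 (chr11:29545846-29546671, minus strand) ends on the same base as the coding Rps27a-201 and starts 1189 bases of genome downstream of its start. Rps2-205 ends 1 base, Rps18-210 0 bases and Rps19-206 2 bases from the end of the coding isoform, and they start 1386, 2988 and 3476 bases downstream. Rps16-203 is different, since it stops 459 bases short of the coding end. A coding isoform showed the same shape: Rps14-203, which ends 1 base from Rps14-201 and starts 1643 bases downstream, took 100%, 100%, 78.6% and 100% of Rps14 in old D1 and 2.86% to 67.8% elsewhere. Old D1 fragments were also the shortest, and the part of fragment length in these shares was not tested. When only the coding isoforms of the members were counted, a choice made after these shares were seen, 11 members were called in D1 with age. All other genes kept their full counts, so the 10.9% of genes called in that fit is not a like background. These were the same 8 plus Rps2 (-1.66, SE 0.43), Rps18 (-7.99, SE 1.58) and Rps19 (-3.49, SE 0.72), all lower. The added members are among those whose non-coding share rose in old D1, so their calls restate those shares. Rps27a moved from 1.01 to -0.59 (SE 0.31, adjusted p = 0.228). For the difference of age changes that count called 1 member, Rps18, where 1.77% of genes were called, again with full counts for all other genes.

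For some members RSEM assigned the TPM to different coding isoforms in libraries of the same group. Whether the messages or only the assignment of reads differed was not tested. Rps10-202, which differs from Rps10-203 in its start, took 99.8% of Rps10 in old D1 replicates 1 and 4 and 0% in the other 14 libraries. Fau-202 took 99.1% of Fau in old D1 replicate 2 and at most 32.4% elsewhere. The form Rps24-201 held 96.4% to 99.8% of Rps24 in all libraries, with no group apart.

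Ribosomal protein genes have many near-identical copies in the genome, and RSEM divides reads between them. By sequence comparison 28 of the 29 members had copies, 216 in all, and Rps9 had none. Copies took 4.58% to 8.43% of the counts of members and copies in each library, highest in old D1 replicate 1. The share was 14.9% for Rps7 (with Gm6472 the largest copy), 16.4% for Rps27 (with Rps27rt, identical over the match) and 12.7% for Rps6 (with Rps6-ps4). For Rps18 it was 16.8% in old D1 and 1.79% in young D1. Levels of these members are uncertain, since reads can be divided wrongly, and the size of that error was not measured. When copies were added to their member, the same 8 members were called in D1 with age.

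Other genes of the ribosome were read from lists chosen with earlier results of these data known. Of 49 large-subunit proteins, the partners of the 40S in each ribosome, 2 rose and 11 fell with age in D1, with a median log2 change of -0.31. Rpl4 (0.72, SE 0.18, adjusted p = 0.0147) and Rpl27a (1.34, SE 0.39, adjusted p = 0.0334) rose, and Rplp2 of the stalk (-2.19, SE 0.36, adjusted p = 0.000739), Rpl41 (-1.33, SE 0.20, adjusted p = 0.000454) and Rpl29 (-1.45, SE 0.24, adjusted p = 0.000893) had the smallest adjusted p-values among the falls. The 11 falls of 49 compare with 7 of 29 for the small subunit and 5.44% of all genes. Between old D1 and old D2 neurons 5 were higher and 5 lower, where 5.02% and 4.58% of all genes were. These and the following lists were read in the main fit only. How their changes depend on the GC and length trend or on the fit was not tested.

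Among 47 tested small-subunit assembly factors, 1 rose and 1 fell in D1 with age, where 5.39% and 5.44% of all genes did. Tsr1, a late cytoplasmic assembly factor, went from 15.1 ± 2.22 to 60.0 ± 21.5 TPM (SD, n = 4; log2 change 2.10, SE 0.46, adjusted p = 0.00676), and Rrp7a, of the early processome, from 178 ± 85.5 to 37.5 ± 33.8 TPM (log2 change -1.60, SE 0.30, adjusted p = 0.00209). The Tsr1 change differed between D1 and D2 (2.5, SE 0.64, adjusted p = 0.0496).

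Of 10 proteins that bind or modify the small subunit, 2 rose in D1. Serbp1, which occupies the message channel of idle ribosomes, went from 99.7 ± 31.7 to 270.3 ± 57.8 TPM (log2 change 1.36, SE 0.20, adjusted p = 0.000347), and its relative Habp4 from 151 ± 37.8 to 287 ± 117 TPM (log2 change 0.83, SE 0.23, adjusted p = 0.0247). For Serbp1 the age change differed between D1 and D2 (1.16, SE 0.28, adjusted p = 0.0383). Of 16 genes of mTOR and pyrimidine-tract regulation, only Mtor passed (1.62, SE 0.50, adjusted p = 0.0431), with 14.7 ± 14.6 TPM in young D1 and 41.3 ± 28.5 TPM in old D1. Of 31 mitochondrial small-subunit proteins, which build another ribosome, Mrps22 rose (1.91, adjusted p = 0.0272) and Mrps2 fell (-1.34, adjusted p = 0.0358). Beside the 5.39% of all genes that rose and the 5.44% that fell, 1 of 16 and 1 of 31 are near the background, and nothing is read from these counts about the lists. In D2 neurons with age, 0 genes of these lists were called, where 0.0790% of all genes were.

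For the 10 members with a pyrimidine run of 8 or more at the annotated start, the median log2 change in D1 with age was -0.77 and 4 were called. For the 15 without, it was -0.28 and 3 were called. Of all tested genes 10.8% were called, and no test was made of the difference between these groups. Rps6, which rose, and Rps26, which fell the most, both had such a run, as the lines above show.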

How the data were processed

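Per the submitters' processing notes, reads were aligned with STAR 2.5.1b and quantified with RSEM 1.2.20 on mm10. Which annotation release and which strand option were used is not given in these sources, and the labels name an amplified cDNA kit (NuGEN Ovation V2) with no molecular identifiers. The authors deposited expected counts, TPM, lengths and, per isoform, a percent of the gene's abundance. The 3 ribosome profiling samples of the series (NIH-3T3 cells) are not analysed here. Members and lists were chosen with earlier results of these data known.

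Expected counts were rounded and tested with edgeR 4.0.16 (robust quasi-likelihood, filterByExpr, TMM, all 16 libraries, 5 contrasts), with Benjamini-Hochberg adjustment over 13926 genes and a threshold of 0.05. SEs are the log2 change divided by the square root of F. Alternatives used DESeq2 1.42.0, limma 3.58.1 (voom, or log2(TPM + 1)), RLE scaling and no count filter. Others used GC and length offsets, added copies, and left-out genes or libraries. A count of coding isoforms only, for the members alone, was added after the data were seen. The pipeline was tested on simulated counts with a dispersion (spread setting) of 0.1, where the data had a common value of 0.956. It recovered 31% of 2-fold and 99% of 4-fold changes, and 3.7% of its calls were false. Recovery at the spread of the data was not tested. All 29 members are accounted for. Those called in any contrast are given per library, and up to 3 genes per direction of each other list are named by adjusted p. Isoform types came from GENCODE M21 (91225 of 94647 isoforms matched), copies from blastn 2.17.0 (at least 90% identity over at least 50% of the shorter transcript), and start sequences from RefSeq. P-values measure the spread between these libraries, which the main fit estimated per gene over all 4 groups together. Members' depth is limited to under 0.34% of counts.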

Additional observations from a re-analysis of the deposited data

Results flagged for a closer look

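Of 116 sets of 4 libraries (29 members in 4 groups), 4 had a library whose TPM lay far above the other 3, and chance flags about 1 in 20 such sets. Rps14 in young D2 replicate 3 was 236 TPM against 148 to 158 in the other 3. In young D1 replicate 4, Rps15a was 690.0 TPM against 340.0 to 371 and Rps21 was 1021 TPM against 592 to 664. Rps27l in young D2 replicate 2 was 50.1 TPM against 7.85 to 14.96.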

How the results depend on the processing

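No paired analysis was possible because the labels carry no replicate numbers that groups share. In D1 with age, 8 members were called. This went to 0 when the fit held the 8 D1 libraries alone, 14 with DESeq2, 3 with limma voom and 13 with limma on log2(TPM + 1). It went to 5 after removal of the trend with GC and length, and to 4 to 10 when 1 library was left out. The left-out fits called 909 of 14471 to 2055 of 14425 genes. Without young D1 replicate 1, 2 or 4 there were 5, 5 and 4 members, all among the 8. Between old D1 and old D2, 8 became 1 when the fit held the 8 old libraries alone, and 3 with limma voom. It became 3 to 9 with 1 library left out (5 without old D1 replicate 2, 3, 5 and 5 without old D2 replicate 2, 3 or 4). Those fits called 692 of 14368 to 1873 of 14425 genes. For the difference of age changes, 0 became 5 with DESeq2, 2 with limma on log2(TPM + 1) and 1 with coding isoforms only. It became 0 to 3 with 1 library left out (1, 3 and 2 without old D1 replicate 2, 3 or 4). Of all genes, 66 of 14368 to 656 of 14425 were called in those fits. No setting called a member in D2 with age or between young D1 and D2. In D1 with age, between old D1 and old D2 and for the difference of age changes, no direction turned for the 10 described members. In the other comparisons directions of members did turn. Between young D1 and D2, 5 of 29 values were negative in the main fit and 2 with DESeq2. With age in D2, 14 were negative in the main fit and 20 without young D2 replicate 1. In D1 with age, Rps27l (-0.02) turned to 0.065 with voom, and ranged from -0.276 to 0.224 when 1 library was left out (0.04, 0.05 and 0.01 for young D1 replicates 1, 2 and 4, 0.11 for old D1 replicate 4, and the highest for old D1 replicate 2), Rps27a (1.01) to -0.589 with coding isoforms only, and Rps2 (-0.48) to 0.396 with limma on log2(TPM + 1). With the trend removed Rps2 turned to 0.497, Rps9 to 0.224, Fau to 0.43, and Rps18, Rps20, Rps21 and Rps28 turned too. With copies added Rps12 and Rps18 turned, and with 1 D1 library left out Rps12, Rps20, Rps21, Rps27l and Rps28 did in at least 1 fit. The cause was not tested. Rps7 in D1 with age was 0.75 (adjusted p = 0.201) and Rps27a 0.42 (adjusted p = 0.377) without old D1 replicate 4, and Rps25 was called (-1.04, adjusted p = 0.00897).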
